A study of Mus musculus with 7 samples.

Results

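The genes of 3 conjugation systems of drug and steroid metabolism were followed through an array study of mouse embryonic stem (ES) cells, their derived germ layers and adult tissues. They are the glutathione transferases (Gst genes of the alpha, mu, pi, theta, omega, zeta and kappa classes and the membrane-bound Mgst genes), the UDP-glucuronosyltransferases (Ugt genes) and the sulfotransferases (Sult genes). Members were defined by a pattern of gene symbols, a rule that holds no signal values, and only through probe sets annotated to a single gene. This gave 46 of the 18194 genes on the arrays, namely 20 cytosolic or mitochondrial Gst genes, 3 Mgst genes, 10 Ugt genes and 13 Sult genes. RNA was measured on 7 arrays, 1 for each cell type or tissue. Liver, Brain and Sk_muscle (skeletal muscle) came from male ICR mice more than 9 weeks old, and how many mice each array stands for is not given. Ectoderm (Ect), endoderm (End) and paraxial mesoderm (Pme) were made in culture from SK7_ESC, the undifferentiated SK7 line. SK7 is 1 male ES cell line with a GFP reporter transgene driven by the Pdx1 promoter, so that all 4 cultured arrays carry this transgene. The labels give the strain ICR for the cultured samples as well.

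Conjugation joins a small polar group to a lipid-soluble compound, which makes it easier to excrete in bile or urine. Glutathione transferases attach the tripeptide glutathione to electrophiles, including products of lipid peroxidation. UDP-glucuronosyltransferases sit in the endoplasmic reticulum and transfer glucuronic acid from UDP-glucuronic acid to bilirubin, steroids, bile acids and drugs. Sulfotransferases are cytosolic enzymes that transfer sulfate from 3'-phosphoadenosine 5'-phosphosulfate (PAPS) to phenols, catecholamines, steroids and bile acids. The liver is the main organ of these reactions, and hepatocytes are the main site within it.

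Signals are linear array intensities on a scale where each array averages 100 without the 2% of probe sets at either end. Values under 50 count as background. A call of higher required a signal over 50 that reached at least 2-fold over the array it was set against. A dimmer signal under 50 was raised to 50 first, so that the fold change is then a lower bound and is given as "at least". With 1 array for each group there is no estimate of spread and no test, so that all differences are differences between these arrays, and their number limits the precision. Levels of different genes cannot be set against each other, since each has probes of its own. Because whole tissues and cultures were measured, fewer cells of a type and less RNA per cell cannot be told apart.

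The labels of the arrays were checked against marker genes. In Liver 9 of 9 hepatocyte markers were above background, in Brain 6 of 6 neuron markers, in Sk_muscle 6 of 6 muscle fibre markers, in SK7_ESC 7 of 7 pluripotency markers, in End 6 of 6 markers of definitive endoderm and in Ect 5 of 6 of early neural ectoderm. End also kept 3 of 7 pluripotency markers above background, Pou5f1 (57.3), Nanog (299.5) and Tdgf1 (774), with a summed signal of 1218, against 16427 in SK7_ESC. In Pme only 2 of 7 markers of paraxial mesoderm were above background, Pdgfra and Twist1, and Tbx6 (17.7), Msgn1 (2.7) and Meox1 (16.0) were not. The label Pme therefore stands here for the array and not for a checked cell type.

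Conjugation genes were above background mainly in Liver, where 33 of 46 (71.7%) were measurable, against 42.9% of all genes in that array. In Brain and in Sk_muscle 13 members (28.3%) were above background, where 49.9% and 43.3% of all genes were. In the cultured cells it was 9 in Ect, 9 in End, 9 in Pme and 10 in SK7_ESC, where 47.1%, 45.5%, 47.4% and 44.4% of all genes were. Of the 34 members above background in at least 1 array, 28 were brightest in Liver, a count that was not made over all genes. Above background in Liver alone were 18 of the 34, against 565 of 12468 (4.53%) of all genes above background somewhere. These 18 were 8 of the 10 Ugt genes, 6 Gst genes and 4 Sult genes. A core of 7 genes was above background in all 7 arrays: Gsta4, Gstm1, Gstm5, Gsto1, Gstp1, Mgst1 and Mgst3, a pattern that 27.8% of all genes share. All 7 belong to the glutathione transferases, and no Ugt gene was above background in any array but Liver. The other 12 members were under background in every array, among them Gsto2, Gstt4 and Mgst2, the Sult genes Sult1c1, Sult1c2, Sult1e1, Sult2a2, Sult2b1, Sult3a1 and Sult6b1, and Ugt2b37 and Ugt2b38. Nothing can be said of the levels of these 12 at this sensitivity. Of all 18194 genes 5726 were likewise under background in every array.

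**Figure D1:**
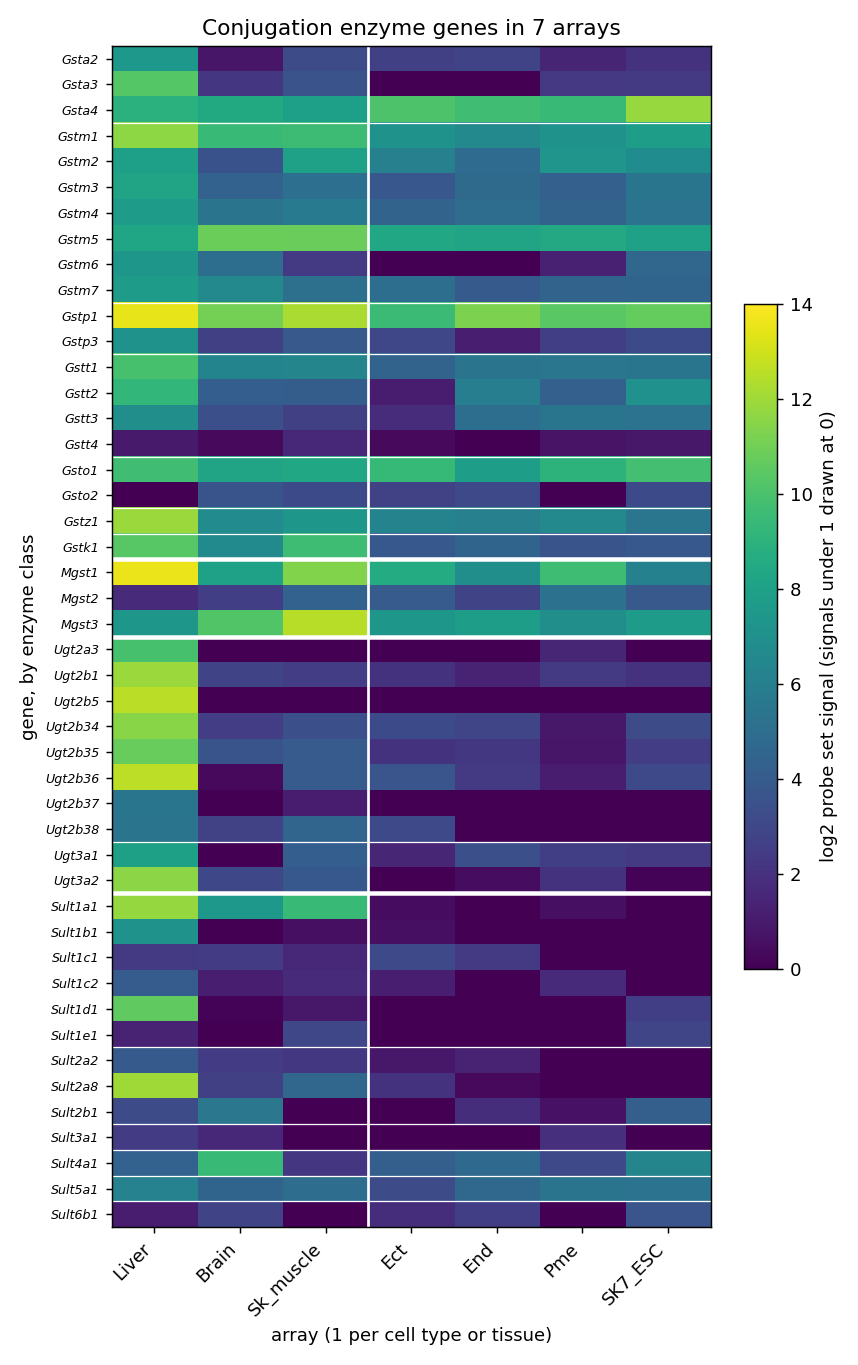
Signals of the 46 conjugation genes (rows, by enzyme family) on the 7 arrays (columns, from Liver to SK7_ESC), with colour for log2 of the signal and signals under 1 drawn at 0. Colours run from dark (low) to yellow (high): most rows are brightest in the Liver column, the Ugt rows are dark in all other columns, and Gsta4, Gstm5, Gstp1 and Mgst3 are among the rows with signal in every column.

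Liver was compared with the other adult tissues to see which conjugation genes are higher there than in both. Of the 46 members, 27 were higher in Liver than in both Brain and Sk_muscle, 2 were lower than in both, and 12 were under background in all 3 tissues. The same rule called 7.71% of all genes higher and 4.18% lower, and it called 18.0% of those above background in Liver higher. Under background in all 3 tissues were 6964 of all 18194 genes. The median log2 ratio of Liver to the brighter of the other tissues was 1.41 over the members and 0 over all genes. By family, 14 of 20 Gst genes, 1 of 3 Mgst genes, 8 of 10 Ugt genes and 4 of 13 Sult genes were higher in Liver. Against all 6 other arrays 26 members were higher, where 5.60% of all genes were, and 0 were lower, where 1.43% were. The only member of the 27 that dropped out was Gsto1, whose signal was 831 in Liver and 894 in SK7_ESC.

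**Figure D2:**
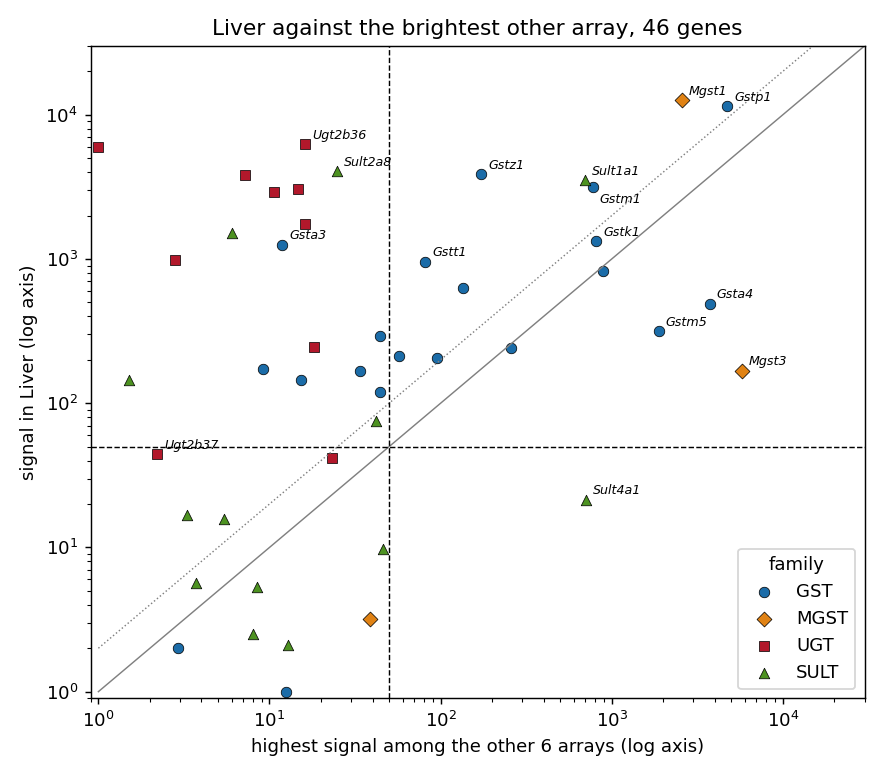
Each of the 46 genes by its signal in Liver (vertical, log axis) and its highest signal among the other 6 arrays (horizontal, log axis), with signals under 1 drawn at 1. Dashed lines mark the background of 50, the solid line equal signals and the dotted line a ratio of 2. The 8 Ugt genes above background in Liver lie at the upper left, under background elsewhere, Ugt2b37 and Ugt2b38 lie under background on both axes, and Gsta4, Gstm5, Mgst3 and Sult4a1 lie below the line of equal signals.

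Of the 8 Ugt2 genes 6 were above background, all in Liver alone, so that their ratios are lower bounds. Ugt2b enzymes glucuronidate steroids, bile acids and many drugs, and 5 of the 7 Ugt2b members were bright in Liver with at most 16.2 in any other array. The sequence just before the start of all 7 is shown first, because these neighbours share a short string there. The 100 bases upstream of each RefSeq start site are given in chromosomal order, 5' to 3' on the strand of the gene, in build GRCm38.p6, with the string GTTANANNTTAAC in capitals.
Ugt2b34: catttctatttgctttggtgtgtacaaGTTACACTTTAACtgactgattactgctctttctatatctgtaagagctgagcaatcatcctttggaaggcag
Ugt2b1: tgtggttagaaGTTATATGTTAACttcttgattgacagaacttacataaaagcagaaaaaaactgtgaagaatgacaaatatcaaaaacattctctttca
Ugt2b35: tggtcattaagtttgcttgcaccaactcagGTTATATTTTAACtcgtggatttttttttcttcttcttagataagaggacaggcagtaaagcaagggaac
Ugt2b36: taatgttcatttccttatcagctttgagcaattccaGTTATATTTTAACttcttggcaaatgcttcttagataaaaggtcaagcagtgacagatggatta
Ugt2b5: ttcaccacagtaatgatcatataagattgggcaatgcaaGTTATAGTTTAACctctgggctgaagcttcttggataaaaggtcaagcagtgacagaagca
Ugt2b37: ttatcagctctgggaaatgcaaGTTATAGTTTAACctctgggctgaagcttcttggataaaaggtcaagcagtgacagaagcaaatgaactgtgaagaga
Ugt2b38: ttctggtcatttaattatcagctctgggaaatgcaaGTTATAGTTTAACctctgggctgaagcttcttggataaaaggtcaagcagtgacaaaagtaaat
These stretches lie at Ugt2b34 at chr5:86906938-86907037 on the minus strand, Ugt2b1 at chr5:86926504-86926603 on the minus strand, Ugt2b35 at chr5:87000760-87000859 on the plus strand, Ugt2b36 at chr5:87092556-87092655 on the minus strand, Ugt2b5 at chr5:87140341-87140440 on the minus strand, Ugt2b37 at chr5:87254789-87254888 on the minus strand and Ugt2b38 at chr5:87424204-87424303 on the minus strand. The string was read from these promoters themselves, so that its presence in all 7 is no finding. Searched on both strands in the 250 bases before the start, it was found in 28 of 32851 mouse promoters (0.0852%), and among the members only Ugt3a1 had it besides. A match of letters is not a binding site.

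Ugt2b36 had a signal of 6242 in Liver and at most 16.1 in the other arrays, which is at least 125-fold higher than in Brain and Sk_muscle. Ugt2b5 had 5948 in Liver, at least 119-fold higher, and at most 0.6 elsewhere. Ugt2b1 had 3813 in Liver and at most 7.2 elsewhere, and its ratio was at least 76.3. These 3 genes were thus seen in Liver and in no other array. Ugt2b34 had 2890.5 in Liver (at least 57.8-fold) and Ugt2b35 had 1737 (at least 34.7-fold). Ugt2a3, which lies between Ugt2b37 and Ugt2b38 in the same run of genes, had 977 in Liver and at most 2.8 elsewhere. Ugt2b37 and Ugt2b38 had 44.2 and 41.6 in Liver, under background as in all other arrays, so that no difference between arrays could be measured for them. Their upstream sequence shared an unbroken 68 and 62 bases with the 250 bases of Ugt2b5, and 82 bases with each other. How probe sets of such close copies divide the signal was not tested.

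The Ugt3 enzymes use other sugar donors than glucuronic acid, as is known for the human proteins. Both were seen in Liver alone. Ugt3a2 had a signal of 3069 in Liver and at most 14.7 elsewhere, at least 61.4-fold higher than in Brain and Sk_muscle. Ugt3a1 had 247 in Liver and at most 18.3 elsewhere, at least 4.94-fold. The 2 genes are neighbours on chromosome 15.

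Among the alpha class of glutathione transferases, Gsta2 and Gsta3 were seen in Liver alone, and Gsta4 was not. Gsta3, whose mouse enzyme detoxifies the epoxide of aflatoxin, had 1255 in Liver and at most 11.8 elsewhere, at least 25.1-fold higher than in the other tissues. A second probe set of Gsta3 had 6075 in Liver and at most 9.1 elsewhere. Gsta2 had 174 in Liver and at most 9.2 elsewhere, at least 3.47-fold. Gsta4, which conjugates 4-hydroxynonenal, a product of lipid peroxidation, had 490.1 in Liver, 359.7 in Brain and 243 in Sk_muscle. Its signal was higher in each of the cultured arrays, namely 1087 for Ect, 823 for End, 691 for Pme and 3727 for SK7_ESC. Gsta4 is the only member whose signal was at least 2 times higher in SK7_ESC than in every other array. SK7_ESC was 7.61-fold above Liver, 10.4-fold above Brain and 15.4-fold above Sk_muscle for this gene.

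The mu class is a run of 7 neighbouring genes on chromosome 3, in the order Gstm5, Gstm7, Gstm6, Gstm3, Gstm2, Gstm1 and Gstm4, and its members did not move as a block. Gstm1 had 3171 in Liver, against 719.5 in Brain and 773 in Sk_muscle, and 139 in Ect, 96.5 in End, 138 in Pme and 234 in SK7_ESC. Liver was 4.10-fold above the brighter of the other tissues. Gstm3 had 293 in Liver and at most 44.0 elsewhere (at least 5.86-fold), and Gstm6 had 168 and at most 33.8 (at least 3.36-fold). Both were thus seen in Liver alone. Gstm4 had 214 in Liver, 42.6 in Brain and 57.4 in Sk_muscle (3.72-fold). Gstm7 had 206 in Liver, 95.8 in Brain and 35.8 in Sk_muscle (2.15-fold), just past the ratio of 2. Gstm2 had 242 in Liver and 258 in Sk_muscle, with 11.5 in Brain, so that Liver and Sk_muscle were alike and Brain was at least 4.85-fold below both. Gstm5, at 1 end of the run, went the other way. It had 316 in Liver, 1877 in Brain and 1796 in Sk_muscle, and between 258.5 and 344 in the 4 cultured arrays. For this gene Brain was 5.95-fold and Sk_muscle 5.69-fold above Liver.

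**Figure D3:**
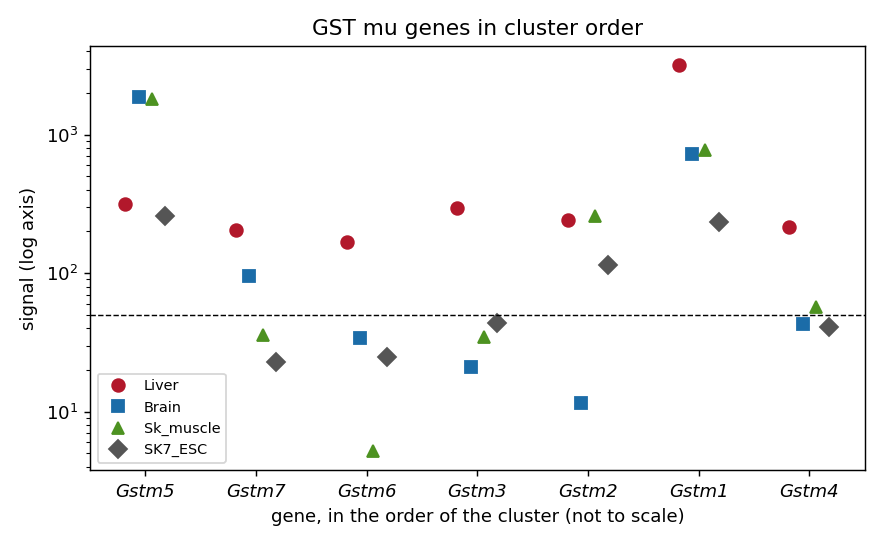
Signals (log axis) of the 7 mu class genes in their order on the chromosome, in Liver, Brain, Sk_muscle and SK7_ESC, with the background of 50 as a dashed line. Liver is the brightest tissue for 5 genes, Gstm2 is alike in Liver and Sk_muscle, and Gstm5 is brightest in Brain and Sk_muscle.

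In the pi class, Gstp1 was bright on all arrays. It had 11433 in Liver, 2155 in Brain and 4702 in Sk_muscle, and Liver was 2.43-fold above Sk_muscle. In culture it had 733 in Ect, 2412 in End, 1358 in Pme and 1660 in SK7_ESC. Gstp3 had 145 in Liver and at most 15.2 elsewhere, at least 2.91-fold. The theta class lies in a run of 4 genes, Gstt3, Gstt1, Gstt4 and Gstt2. Gstt1 had 957 in Liver, 80.5 in Brain and 81.5 in Sk_muscle (11.7-fold), and Gstt2 had 625 in Liver and at most 18.5 in the other tissues (at least 12.5-fold). Gstt3 had 119 in Liver and at most 44.1 elsewhere (at least 2.38-fold), and Gstt4 was at most 2.9 in every array.

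The zeta class enzyme Gstz1 is maleylacetoacetate isomerase, a step of tyrosine breakdown. It had 3879 in Liver, 109 in Brain and 172 in Sk_muscle, so that Liver was 22.6-fold above Sk_muscle, the widest contrast among the Gst genes with both signals above background. Gstk1, the kappa class enzyme of mitochondria and peroxisomes, had 1328 in Liver and 813.5 in Sk_muscle, with 106 in Brain, and was under background in the 4 cultured arrays (at most 22.6). It was not called in Liver over both tissues, but it was 7.70-fold lower in Brain than in Sk_muscle. Gsto1, an omega class enzyme that reduces dehydroascorbate, had 831 in Liver, 294 in Brain and 341 in Sk_muscle (2.43-fold). Its second probe set had 629 in Liver and 511 in Sk_muscle and was not called, so that this call depends on the probe set.

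The membrane-bound transferases differed from each other. Mgst1, an abundant enzyme of liver microsomes and mitochondrial membranes, had 12561 in Liver, 254.5 in Brain and 2567 in Sk_muscle, and Liver was 4.89-fold above Sk_muscle. Mgst3, which can conjugate leukotriene A4 with glutathione, had 168 in Liver, 1171 in Brain and 5754 in Sk_muscle. Sk_muscle was 4.91-fold above Brain and 34.2-fold above Liver for Mgst3. Each of these genes has a second probe set that was under background on every array (at most 30.2 for Mgst1 and 34.4 for Mgst3), so that their calls rest on 1 probe set each. Mgst2, the third gene, was at most 38.5.

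Of the sulfotransferases 4 were called higher in Liver. Sult2a8, a mouse liver enzyme that sulfates bile acids, had 4078 in Liver and at most 24.7 elsewhere, at least 81.6-fold. Sult1d1, which sulfates catecholamines in the mouse, had 1514 in Liver and at most 6.0 elsewhere, at least 30.3-fold. Both were thus seen in Liver alone. Sult1a1, the main phenol sulfotransferase, had 3507 in Liver, 178.5 in Brain and 694 in Sk_muscle, and at most 1.5 in the 4 cultured arrays. Liver was 5.06-fold above Sk_muscle, and every adult tissue was above every cultured array. Sult1b1, whose substrates include thyroid hormones, had 144 in Liver and at most 1.5 elsewhere (at least 2.88-fold). Sult5a1 had 75.0 in Liver and at most 41.9 elsewhere, under the ratio of 2. Sult1b1 and Sult1d1 lie beside the Ugt2 genes on chromosome 5, next to Sult1e1, which was at most 8.0.

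Brain and Sk_muscle were compared in the same way with the other tissues. In Brain 1 member was higher than in Liver and Sk_muscle and 5 were lower, where 10.8% of all genes were higher and 4.08% lower. The member that was higher is Sult4a1, a sulfotransferase of neurons with no well-established substrate. It had 704 in Brain, 21.4 in Liver and 4.6 in Sk_muscle, at least 14.1-fold, and it was the only member above background in a cultured array (81.4 in SK7_ESC) and not in Liver. Its second probe set had 496 in Brain and 123 in SK7_ESC. The 5 members lower in Brain were Mgst1 (10.1-fold), Gstk1 (7.70-fold), Gstm2 (at least 4.85-fold), Sult1a1 (3.89-fold) and Gstp1 (2.18-fold), each against the dimmer of the other tissues. In Sk_muscle 1 member was higher than in both, Mgst3, and 0 were lower, where 7.47% of all genes were higher and 2.62% lower.

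Marker genes of other cells moved with these tissue differences. Hepatocyte markers were 9 of 9 in Liver with a summed signal of 94498, against 1 of 9 in Brain (Ttr alone, which the choroid plexus also makes, 4270 in sum) and 3 of 9 in Sk_muscle (Alb, Ttr and Cyp2e1, 896 in sum). Of the markers of Kupffer cells and leukocytes 6 of 6 were above background in Liver (1961 in sum), 2 in Brain and 3 in Sk_muscle. In Sk_muscle 2 of 4 adipocyte markers, Adipoq (688) and Fabp4 (6653), were above background and the sum was 7383, against 353 in Liver and 12.8 in Brain. Lep, an adipocyte hormone, was 0.6 in Sk_muscle. Markers of fibroblasts and feeder cells were 8 of 8 in Sk_muscle (13883 in sum), 6 in Liver (2811) and 3 in Brain (2270). Endothelial markers were 5 of 5 in Sk_muscle (1019 in sum), 4 in Liver (586) and 0 in Brain (124). The part of all these cells in the signals of conjugation genes, among them Mgst1, Gstk1 and Sult1a1 in Sk_muscle, was not tested.

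The germ layers were compared with the ES cells they came from, to follow conjugation genes through the first steps of differentiation. Above background in any cultured array were 11 of the 46 members, or 20 with a background of 20. Besides the core of 7 these were Gstm2, Gstt2, Gstz1 and Sult4a1. The same count over all genes was not made. In each layer 35 of 46 members were under background in both the layer and SK7_ESC. Of all 18194 genes, 8873 were so for Ect, 9192 for End and 8882 for Pme. In Ect 1 member was higher than in SK7_ESC and 3 were lower, where 6.62% of all genes were higher and 4.89% lower, and with a background of 20 the members lower in Ect were 7. In End 0 were higher and 5 lower, where 4.89% were higher and 3.81% lower. In Pme 1 was higher and 2 lower, where 6.74% were higher and 4.55% lower. The 3 comparisons share the SK7_ESC array.

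Gsta4 and Gstt2 were lower in all 3 layers than in SK7_ESC, as were 2.03% of all genes, and 0 members were higher in all 3, as were 1.76%. For Gsta4 the difference was 3.43-fold in Ect, 4.53-fold in End and 5.39-fold in Pme, from the signals given above. Gstt2 measured 2.2 in Ect, 64.5 in End and 19.9 in Pme, against 135 in SK7_ESC, which is at least 2.71-fold lower in Ect, 2.10-fold in End and at least 2.71-fold in Pme. Gstp1 was 2.26-fold lower in Ect, with 733 against 1660 in SK7_ESC, while End had 2412 and was not called. End was also lower in Gsto1 (220 against 894 in SK7_ESC, 4.07-fold), in Gstm1 (96.5 against 234, 2.43-fold) and in Gstm2 (29.6 against 114, at least 2.28-fold). Sult4a1 measured 19.2 in Ect, 27.4 in End and 8.5 in Pme, against 81.4 in SK7_ESC, and was called lower in the layers by its second probe set only. Gstz1 was above background in all 3 layers, with 76.8 in Ect, 68.9 in End and 98.0 in Pme, against 45.9 in SK7_ESC, and was not called. All members called lower in a layer by the probe set that stood for them were cytosolic glutathione transferases. So were 8 of the 11 members above background in any cultured array, beside 2 Mgst genes and 1 Sult gene. Few other members could thus have been called lower.

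Mgst1 was the only member higher in a layer than in SK7_ESC. It reached 398 in Ect, 119 in End and 792 in Pme, against 70.0 in SK7_ESC, which is 5.68-fold higher in Ect and 11.3-fold higher in Pme. These calls rest on the brighter of its probe sets and are lost with the other, which was under background throughout. Among the layers, End was lower than both Ect and Pme in Mgst1 (3.34-fold against Ect) and Gsto1 (220 in End, against 672 in Ect and 522 in Pme, 2.38-fold), where 1.33% of all genes were. Pme was higher than both other layers in Gstm2, with 156.5, against 67.4 in Ect and 29.6 in End (2.32-fold), where 2.06% of all genes were. Ect was neither higher nor lower than both other layers in any member, where 1.82% and 1.17% of all genes were. End was higher than both in 0 members (1.86% of all genes) and Pme was lower than both in 0 (0.401%).

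Markers of fibroblasts and feeder cells, which are mesenchymal cells, were, like Mgst1, highest in Pme and second in Ect among the cultured arrays. Of 8 such markers 5 were above background in Ect, 4 in End, 6 in Pme and 4 in SK7_ESC, with a summed signal of 2132.5 in Ect, 537 in End, 8601 in Pme and 764 in SK7_ESC. Lum was under background in all 4 and Col1a1 was 1204 in Pme, against 57.7 in SK7_ESC. The summed signal of the 7 markers of paraxial mesoderm was also highest in Pme (1341) and second in Ect (258). It was 164 in End and 234 in SK7_ESC. The part of either kind of cell in the signals of Mgst1 was not tested. Of the hepatocyte markers 0 of 9 were above background in Ect, End, Pme and SK7_ESC, with summed signals between 33.6 and 99.

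**Figure D4:**
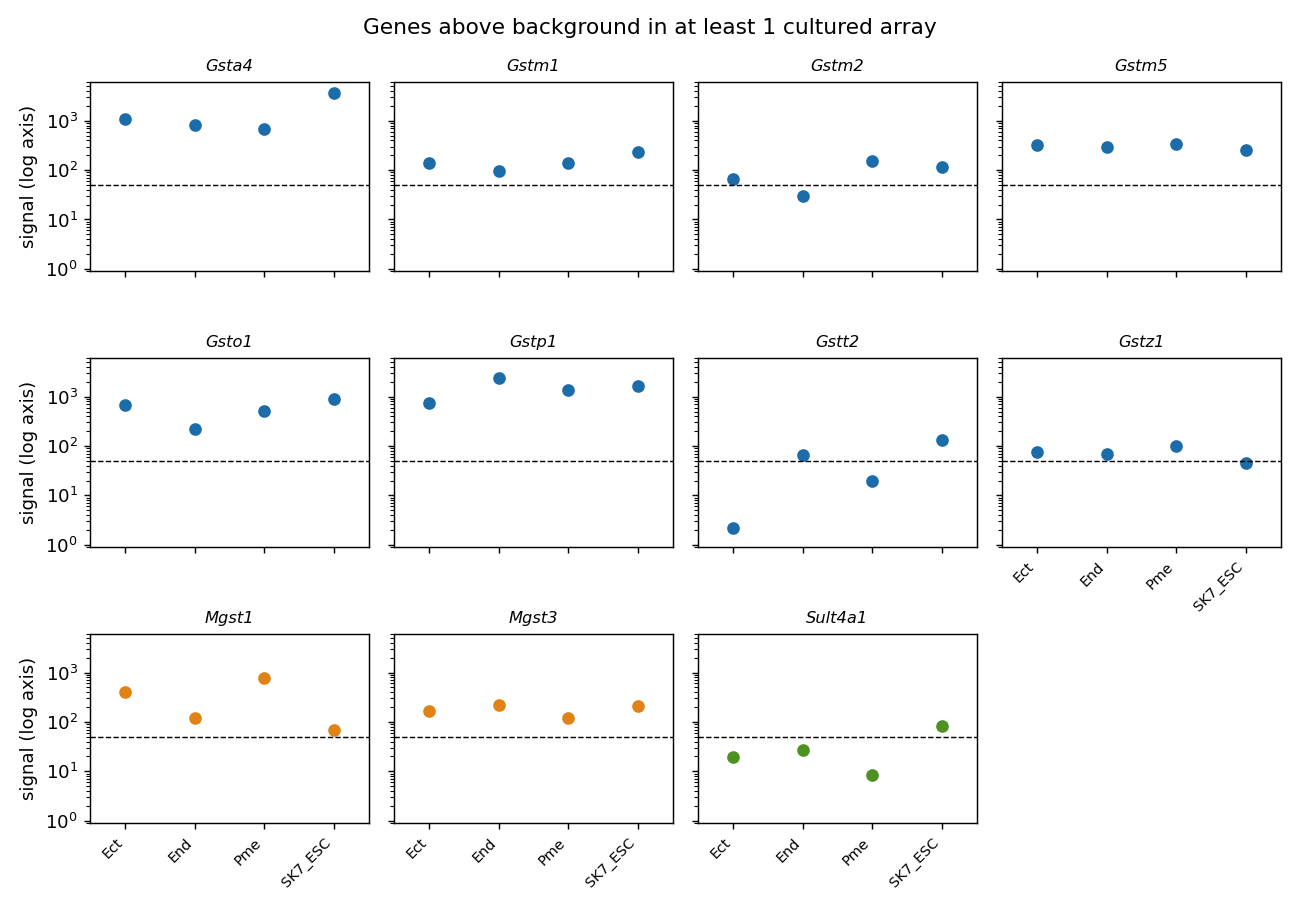
Signals (log axis) of the 11 members above background in at least 1 cultured array, in Ect, End, Pme and SK7_ESC, 1 panel for each gene, with the background of 50 as a dashed line and colours for the Gst (blue), Mgst (orange) and Sult (green) genes. Gsta4 and Gstt2 are lower in all 3 layers than in SK7_ESC, and Mgst1 is higher in Ect and Pme.

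No Ugt1 gene is among the members, because the Ugt1a enzymes, which include the enzyme that glucuronidates bilirubin, share exons that the arrays read in common. The 3 probe sets of the Ugt1a locus are each annotated to 8 gene symbols, so that they give the locus and name no gene. In Liver they had 3829, 7044 and 4541, against 33.8, 61.5 and 16.5 in Brain and 49.6, 96.9 and 27.8 in Sk_muscle. In the cultured cells, unlike the Ugt genes of the rule, they were above background, with 160, 323 and 72.2 in Ect and 386, 830 and 229 in Pme, against 40.6, 54.5 and 17.8 in SK7_ESC. End had 36.8, 51.8 and 9.9. Pme was called higher than SK7_ESC by all 3 probe sets (at least 7.73-fold, 15.2-fold and at least 4.58-fold), and Ect by 2 of them (at least 3.20-fold and 5.92-fold). The order of the cultured arrays, Pme over Ect over both End and SK7_ESC, is the same in the 3 probe sets, and Mgst1 was likewise highest in Pme and second in Ect. Among the cultured arrays, the fibroblast markers and the paraxial mesoderm markers given above also have their highest and second sums in Pme and Ect. The part of these cells was not tested here either. A probe set of the Gsta locus with 3 symbols had 180 in Liver and at most 11.7 elsewhere, and that of Ugt2a1 and Ugt2a2 was at most 23.2.

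**Figure D5:**
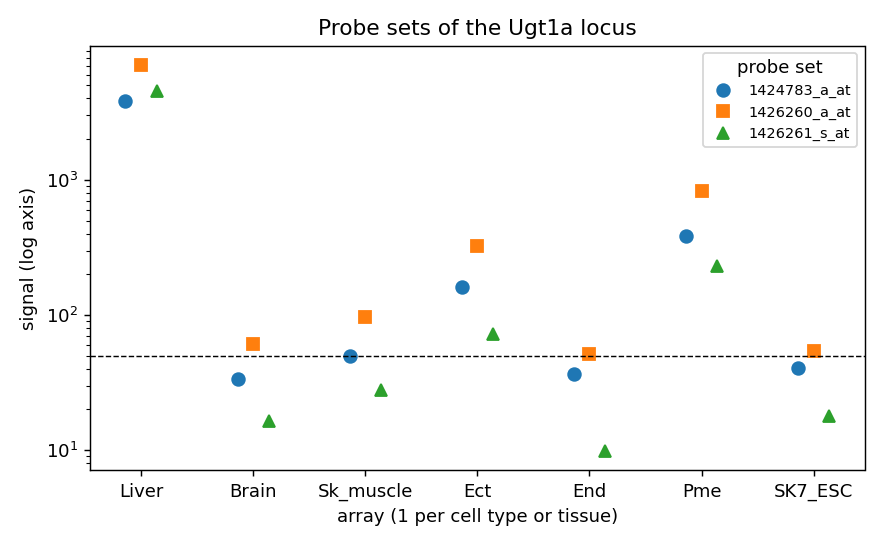
Signals (log axis) of the 3 probe sets of the Ugt1a locus on the 7 arrays, with the background of 50 as a dashed line and a marker shape for each probe set. All 3 are brightest in Liver, then in Pme and then in Ect.

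The promoters of the members were also searched for the core of the antioxidant response element, TGACNNNGC, the letters that the oxidative stress factor Nfe2l2 and its small Maf partners are known to bind. Of the 46 members 41 had a promoter in the RefSeq table. In the 250 bases before the start, on either strand, the core was found in 4 of these 41 (9.76%), against 3338 of 32851 mouse promoters (10.2%). The share in the members was thus near that of all promoters. The 4 stretches of 60 bases are printed to show the core in its place, 5' to 3' on the strand of the gene, with the core in capitals (in Mgst1 on the reverse strand).
Gsta3: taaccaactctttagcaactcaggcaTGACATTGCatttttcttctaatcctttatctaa
Gstm5: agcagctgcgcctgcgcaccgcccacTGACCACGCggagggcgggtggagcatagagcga
Gstm7: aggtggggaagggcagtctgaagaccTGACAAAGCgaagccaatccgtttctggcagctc
Mgst1: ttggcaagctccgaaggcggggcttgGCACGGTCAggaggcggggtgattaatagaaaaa
They lie at Gsta3 at chr1:21240438-21240497 on the plus strand, Gstm5 at chr3:107895786-107895845 on the plus strand, Gstm7 at chr3:107931710-107931769 on the minus strand and Mgst1 at chr6:138140445-138140504 on the plus strand, in build GRCm38.p6. The signals of these 4 genes differed in pattern, since Gsta3 was seen in Liver alone, Gstm7 and Mgst1 were higher in Liver, and Gstm5 was lower there.

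The genes that feed, extend or regulate conjugation were followed as lists, read against 7.71% of all genes higher and 4.18% lower in Liver than in both other tissues. The lists were chosen with earlier results of these data known. These shares of all genes therefore give a scale and are no test of enrichment. For glutathione, 7 of 15 genes of synthesis and recycling were higher in Liver and 0 lower, with a median log2 ratio of 0.98. Cth and Cbs, which make cysteine from methionine, were 51.5-fold and 23.1-fold higher, and Gclc and Gclm, the subunits of the first enzyme of glutathione synthesis, 7.39-fold and 6.8-fold. Other genes of the list were brighter in at least 1 of the other tissues than in Liver. Ggt5 and Dpep1, which break down glutathione conjugates outside the cell, had 37.1 and 23.1 in Liver, under background as in Brain, against 210 and 126 in Sk_muscle. Chac1, which breaks down glutathione, had 109 in Liver, against 422 in Sk_muscle, Ggt7 had 1.0 in Liver, against 219 in Brain, and Ggct had 79.1 in Liver, against 192 in Brain and 147.5 in Sk_muscle. In the layers 5 of the 15 genes in Ect, 4 in End and 4 in Pme were lower than in SK7_ESC, and 0, 2 and 0 were higher, where 4.89%, 3.81% and 4.55% of all genes were lower and 6.62%, 4.89% and 6.74% higher. Gclm was at 61.9 in Ect, 93.0 in End and 63.2 in Pme, against 467 in SK7_ESC. Of 10 glutathione peroxidases and thiol redox genes 1 was higher in Liver, Gpx1 (9.48-fold), and 1 was lower, Gpx3, with 71.8 in Liver, 248 in Brain and 1274 in Sk_muscle.

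For glucuronidation, 4 of 8 genes of cofactor supply and related steps were higher in Liver and 0 lower. Among the 4 was Gusb (3.79-fold), which supplies no cofactor. Slc35d1, which carries UDP-glucuronic acid into the endoplasmic reticulum, was 13.3-fold higher, and Ugdh, which makes UDP-glucuronic acid, 8.46-fold. Ugp2 and Pgm1, which also serve glycogen synthesis, were brightest in Sk_muscle. Ugdh was 1225 in Pme, against 395 in SK7_ESC, and thus called higher in the array where the Ugt1a probe sets were highest in culture. In Ect, where Ugt1a probe sets were also called higher than in SK7_ESC, Ugdh was 376 and was not called. For sulfation, 5 of 10 genes of PAPS and sulfate handling were higher in Liver and 0 lower. Papss2, which makes PAPS, was at least 3.43-fold higher with 171.5 in Liver, 44.1 in Brain and 41.1 in Sk_muscle, while Papss1, the second gene for this step, had 255 in Liver and 291 in Brain.

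Of 21 other conjugating enzymes and enzymes of related steps, 13 were higher in Liver and 0 lower, with a median log2 ratio of 2.5. The widest ratios were those of Glyat, the glycine conjugation enzyme (at least 75.2-fold), Nnmt, which methylates nicotinamide (at least 48.1-fold), Acsm1 (at least 42.2-fold) and Gnmt (40.6-fold). Of 14 transporters of conjugates 6 were higher in Liver and 2 lower. Slco1b2 and Slco1a1, which take up organic anions into hepatocytes rather than export them, were at least 90.7-fold and 41.6-fold higher. The export pumps Abcc3 and Abcc2 were at least 7.45-fold and 4.01-fold higher, and the export pumps Abcc1 and Abcc5 were lower, with 35.3 and 30.6 in Liver, against 102 and 192 in Brain. Of 16 regulators 7 were higher in Liver and 0 lower, led by Hnf4a (at least 21.1-fold), Cebpa (at least 19.9-fold), the bile acid receptor Nr1h4 (at least 11.6-fold) and the xenobiotic receptor Nr1i3 (at least 8.55-fold). Nfe2l2 itself had 455 in Liver, 165 in Brain and 564 in Sk_muscle, and 167 in Ect, 461 in End and 333 in Pme, against 719 in SK7_ESC. Ahr, the dioxin receptor, had 174 in Pme, against 50.9 in SK7_ESC, and was called higher there.

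Of the 46 members 35 have 1 probe set on the arrays and 11 have several, and in 7 of these 11 the probe sets gave unequal calls in some comparison. Besides Gsto1, Mgst1, Mgst3 and Sult4a1, these were Gstm1, Gstm3 and Gstm7. Gstm1 has 4 probe sets, with 3171, 2733, 312 and 86.3 in Liver. Gstm3 had 293 and 83.9 in Liver by its 2 probe sets, and the second probe set of Gstm7 was at most 28.0 in every array. For Gsta3, Sult1d1, Ugt2b34 and Ugt3a1 all probe sets gave the same calls. The main probe set of 13 members is marked as reading shared sequence, among genes with close copies or several transcripts. The mark is the ending _s_at or _x_at in 6 of them, where part of the signal may come from a related gene. In the other 7, with Mgst1 among them, it is _a_at, which can stand for several transcripts of the same gene.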

How the data were processed

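RNA of 7 samples was hybridized to Affymetrix Mouse Genome GeneChip arrays of 45101 probe sets. The deposited values are linear intensity signals, which the authors normalized globally to an average of 100. Without the 2% of probe sets at either end, the mean of every array was 100.0. How probes were summarised into probe sets is not stated. The labels name an RNA kit that differs from the one in the methods. No counts exist for arrays, and 1 array for each group limits the precision.

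Gene names came from the platform annotation, in which 34958 probe sets have 1 gene symbol, 932 have several and 9211 are unnamed here. Where a gene had several probe sets, the one with the highest mean of log2 signals (floor 0.1) stood for it. Ratios were formed after signals under 50 were raised to 50, and a ratio of 2 with the brighter signal over 50 was called. An array set against several had to pass against each of them. The members and gene lists were chosen with earlier results of these data known. Members were named where they were called, above background in every array, at odds with their class or unequal between probe sets, and from each list up to 4 genes with the largest ratios and those that went against it. Results were repeated with a background of 20, a 3-fold rule, quantile normalization, scaling to 1 median, the geometric mean of probe sets and without shared-sequence probe sets. The probe set with the highest signal in any array was added after seeing the data. The computation of the calls was checked on simulated data, which says nothing of the spread between real arrays. Promoter sequences are those of RefSeq (GRCm38.p6). Python 3.11.15, numpy 2.4.6, pandas 2.3.3 and matplotlib 3.10.9 were used. Of the pathway genes listed, Ggt1, Prdx1, Prdx6 and Sts were among those not analysed here, as were DNA methylation and histone data.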

Additional observations from a re-analysis of the deposited data

Results flagged for a closer look

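Signals above background appeared in probe sets that name several genes and so stand outside the comparisons of the 46 members. The 3 probe sets of the Ugt1a locus had 3829.3, 7044.2 and 4541.0 in Liver and 386.4, 830.3 and 228.9 in Pme. In Ect 2 of them had 159.8 and 322.6. In SK7_ESC the same 3 probe sets had 40.6, 54.5 and 17.8. The probe set of the Gsta locus had 180.3 in Liver.

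Some genes of the pathway lists moved in opposite directions in 2 germ layers relative to SK7_ESC. Chac1, which breaks down glutathione inside the cell, had a log2 ratio of -1.70 or lower in Ect and 1.07 in End. Ggct, a gene of the same list, had a log2 ratio of 1.61 in End and -1.97 or lower in Pme. Gpx3, a secreted glutathione peroxidase, had a log2 ratio of -1.33 or lower in Ect and 1.58 in Pme. The negative ratios are bounds, since Chac1 (48.8) and Gpx3 (38.8) in Ect and Ggct (44.9) in Pme were under background and raised to 50. Each layer has 1 array and shares the SK7_ESC array with the others, and the difference between layers was not tested.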

How the results depend on the processing

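No paired analysis was possible because each group had 1 array, and for the same reason no replicate could be left out. Of 526 repeats of the 77 calls of members under the alternatives, 488 were kept, 38 were lost and 0 were reversed. Calls lost were 0 with a background of 20, 1 with quantile normalization, 0 with scaling to 1 median, 8 with the geometric mean of probe sets, 20 with a 3-fold rule, 0 with the probe set of highest signal in any array (chosen after seeing the data), and 9 of 64 without shared-sequence probe sets, where 39 members keep a probe set. Of 192 counts 167 stayed within 1.5 times. With a background of 20, members above background in a cultured array were 20 (11 before), those higher in Brain 2 (1), lower in Ect than in SK7_ESC 7 (3), higher in Pme 2 (1), lower in Pme 4 (2), and higher in End than in the other layers 1 (0). Quantile normalization gave 1 member lower in Ect among the layers (0) and 2 higher in Pme (1). Scaling to 1 median gave 4 lower in Pme than in SK7_ESC and 1 higher in End among the layers. With the geometric mean, 1 member was lower in Liver (2), 0 were higher in Ect and in Pme than in SK7_ESC, 1 was lower in End among the layers (2), and 3 sulfation genes were higher in Liver (5). Without shared-sequence probe sets, 0 were higher in Ect and in Pme, 1 was lower in End among the layers, and 7 of the other conjugating enzymes were higher in Liver (13). A listed gene left without a probe set could not be called there, so that this fall need not mean failed calls. With a 3-fold rule, members lower than in SK7_ESC were 1 for Ect, 2 for End (5) and 1 for Pme, 1 was lower in End and 0 higher in Pme among the layers, and 1 sulfation gene was higher in Liver. The rise of Mgst1 in Ect and Pme was lost with the geometric mean and without shared-sequence probe sets, since its second probe set was under background. The main probe set of Mgst1 has the ending _a_at, so that this loss does not show that it reads another gene. Over all genes, the median log2 difference of Liver against Brain was 0.21 with quantile normalization and 0.34 with scaling to 1 median. It was -0.03 in the main setting. Scaling to 1 median moved the same median for Ect and Pme against SK7_ESC to -0.14 and -0.19 (0.08 and 0.05 before). For Liver against Sk_muscle it moved to -0.11 (-0.08 before).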
